A study of Homo sapiens with 6 samples.

Results

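The genes examined here are 9 named genes of osteoblast identity and bone mineralization, RUNX2, SP7, ALPL, SPP1, BGLAP, SPARC, DLX5, TNFRSF11B and TNFSF11, taken by gene name from the 58735 genes of the deposited table. RNA-seq was performed on cells labelled MG63, an established human osteosarcoma cell line, 48 h after transfection with an siRNA directed at FUBP1 (siFUBP1, 3 samples) or with the control labelled siMock (3 samples). FUBP1 encodes a single-stranded DNA-binding protein, and an siRNA is a short RNA duplex that guides the cleavage of a matching mRNA. No other treatment or allele is named for either group, the FUBP1 siRNA that was sequenced is not named in the sources used here, and the study's methods speak only in general of repeated experiments, without saying that the 3 sequenced samples of a group came from separate cultures, so p-values measure the spread between these samples, which may be technical. Of the 9 genes, 2 had no read in any sample, 6 more stayed under the expression filter, and RUNX2, the only one tested, rose after FUBP1 knockdown.

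Osteoblasts are the cells that build bone, and their differentiation depends on a short chain of transcription factors: RUNX2 commits mesenchymal precursors, DLX5 acts upstream of it in response to bone morphogenetic proteins, and SP7 (osterix) acts downstream of it. Mature cells secrete type I collagen with SPARC (osteonectin), SPP1 (osteopontin) and BGLAP (osteocalcin), and they use ALPL, the tissue-nonspecific alkaline phosphatase, to split pyrophosphate, an inhibitor of mineral growth. The same lineage controls bone resorption through TNFSF11 (RANKL), the ligand that drives osteoclast formation, and TNFRSF11B (osteoprotegerin), the secreted decoy receptor that captures it.

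Total counts ran from 16309900 to 17484313 per sample. FUBP1, the targeted gene, had 3872, 4331 and 4282 counts in the siMock samples and 749, 752 and 926 in the siFUBP1 samples. All siFUBP1 samples lay below all siMock samples (log2 fold change -2.44 with a standard error of 0.0895 and adjusted p = 1.90e-17, from the quasi-likelihood test of edgeR adjusted after Benjamini and Hochberg), as the labels say. The label of the cell line was set against its defining genes, which were chosen for naming after their values were seen except for the 9 members. COL1A2 (the partner chain of COL1A1 in type I collagen), IBSP (bone sialoprotein), POSTN (periostin), LUM, VCAN and PDGFRA had 0 counts in all 6 samples. BGN, THY1 and CDH11, further genes of bone or mesenchymal cells, had at most 2 counts in any sample. Genes such as COL1A1, with 1692 to 2000 counts in siMock, FN1 (1639 to 2056), COL5A1 and the intermediate filament gene VIM were read deeply. So were the simple epithelial keratins KRT8 (28650 to 34970 counts in siMock), KRT18 and KRT7. Of the 5 genes of the epithelial marker list, however, 3 stayed under 10 counts in every sample. COL1A2, BGN and the other bone and mesenchymal genes named with them were at or near 0 in both groups, although other matrix genes were not. The identity of the line behind the label was not tested.

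**Figure D1:**
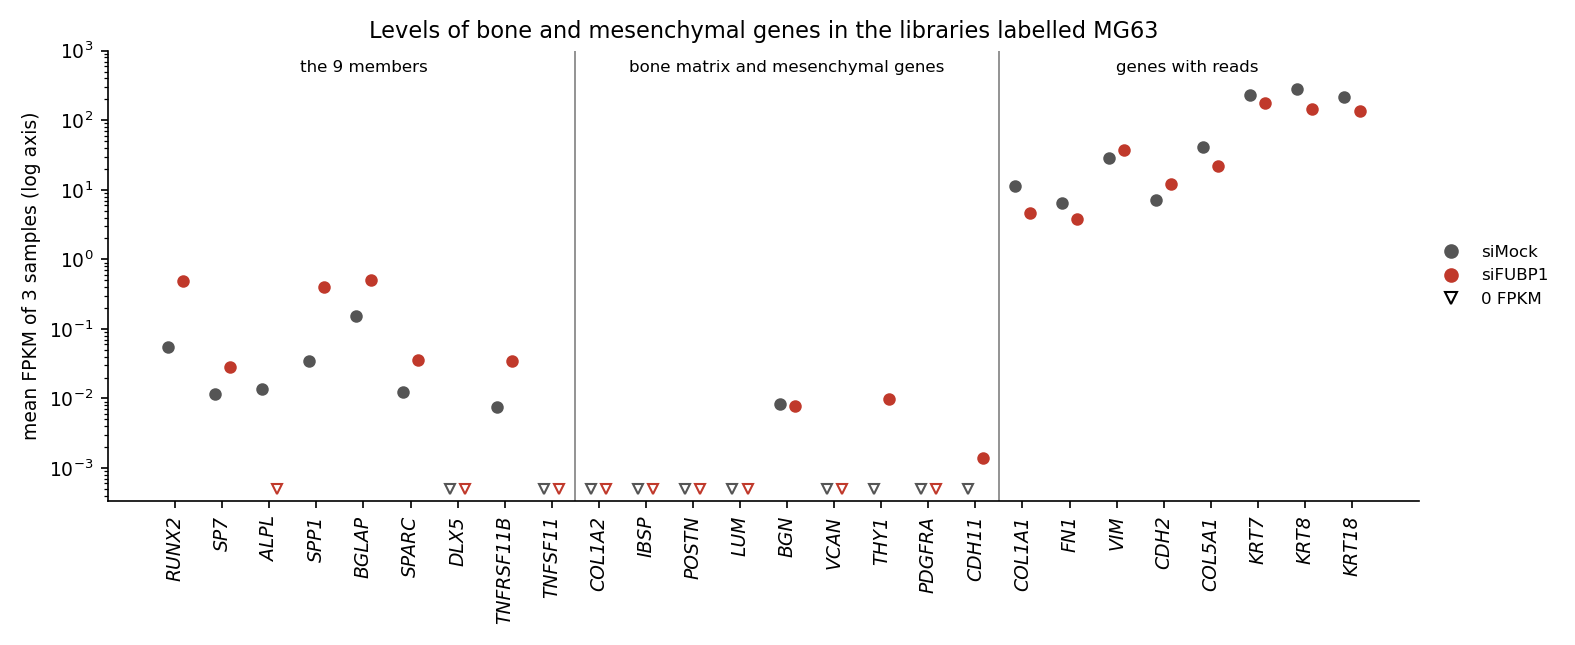
Mean FPKM of 3 samples (log axis) for the 9 members, for 9 further genes of bone matrix or mesenchymal cells and for 8 genes with many reads, in siMock (grey) and siFUBP1 (red). Open triangles mark genes listed at 0. The members lie at or below 0.500 FPKM and most genes of the middle block are listed at 0, whereas KRT8 lies at 286 FPKM in siMock.

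The Runt factors bind the core TGTGGT, or its reverse complement ACCACA on the other strand. Promoter sequence is shown only for the member windows that hold at least 1 core, which are windows of RUNX2, BGLAP and SPP1. A core in each printed sequence therefore follows from that choice. RefSeq promoters on GRCh38.p14, running from 250 bases before to 50 bases after a transcript start, were matched for 6 of the members in 10 windows. SP7 and DLX5 had no promoter entry to match, and TNFRSF11B was left out because of its chromosome. Capitals mark the core, which reads ACCACA on the strand of the gene in every match. The 230 bases of RUNX2 (chr6:45328130-45328359, plus strand, distal promoter) run to 30 bases past the start, and the 250 bases of BGLAP (chr1:156241934-156242183, plus strand) and of SPP1 (chr4:87975464-87975713, plus strand) end just before it.
RUNX2: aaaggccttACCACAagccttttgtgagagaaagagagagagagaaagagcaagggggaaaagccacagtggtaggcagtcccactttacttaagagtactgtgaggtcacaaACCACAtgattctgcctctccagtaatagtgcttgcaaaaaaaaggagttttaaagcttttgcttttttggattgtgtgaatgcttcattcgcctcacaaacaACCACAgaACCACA
BGLAP: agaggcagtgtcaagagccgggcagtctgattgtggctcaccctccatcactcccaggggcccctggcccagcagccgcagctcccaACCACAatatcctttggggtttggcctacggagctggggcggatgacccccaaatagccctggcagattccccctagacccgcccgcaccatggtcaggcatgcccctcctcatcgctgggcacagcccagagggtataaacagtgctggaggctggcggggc
SPP1: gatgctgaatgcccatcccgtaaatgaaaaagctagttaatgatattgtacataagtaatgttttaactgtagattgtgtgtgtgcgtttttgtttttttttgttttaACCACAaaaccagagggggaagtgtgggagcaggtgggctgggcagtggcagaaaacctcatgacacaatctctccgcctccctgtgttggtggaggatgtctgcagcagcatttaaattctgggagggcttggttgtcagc
The RUNX2 window holds 4 cores, whose leftmost bases lie at -191, -87, 17 and 25, counted from 1 at the first transcribed base and with no position 0. BGLAP holds 1 at -163 and SPP1 holds 1 at -142, and none of these matches overlaps another. The other 7 windows, 3 of ALPL, 2 of TNFSF11, 1 of SPARC and the proximal promoter of RUNX2, hold none. Of 35116 RefSeq promoters of the same length, 13.1% hold at least 1 core and 5 promoters hold 4 or more. These are matches of 6 letters, and no binding was measured.

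RUNX2 (ENSG00000124813, GRCh38 chromosome 6, 45328157 to 45664349, plus strand, 8192 exonic bases) is the Runt-domain factor that sets osteoblast fate. It had 8, 8 and 6 counts in the siMock samples and 73, 97 and 39 in the siFUBP1 samples. The lowest siFUBP1 sample held more reads than any siMock sample by a wide margin, and the siFUBP1 samples also differed among themselves. Mean CPM (± SD, n = 3) came to 0.448 ± 0.0563 for the controls and 4.04 ± 1.69 after knockdown. CPM are counts scaled to the TMM-adjusted library size. RUNX2 rose by 3.15 ± 0.37 (SE) on the log2 scale, with an adjusted p = 4.53e-08 by edgeR over the 16116 genes tested. An exact permutation test on the CPM gave a two-sided p of 0.1, the smallest that 3 samples against 3 allow. Summed over samples, 22 reads stood against 209, a ratio of 8.99 with an exact 95% interval from 5.78 to 14.7, which covers counting error only. In bulk RNA, more cells that use a gene and more RNA per cell cannot be told apart.

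RUNX2 passed the expression filter only through the siFUBP1 samples, so its call is read against the background: 30.1% of the 16116 genes tested were called higher in siFUBP1 at an adjusted p below 0.05, and 30.1% were called lower. With a log2 fold change above 1 required as well, 8.16% were higher, and RUNX2 was among them. No member was called lower by edgeR, by DESeq2 or by limma, and at an unadjusted p below 0.05 the number was also 0, in the fits without the filter too. These numbers say little, since most fits held RUNX2 alone and those without the filter held 7 members. ALPL, with 2 reads in siMock and 0 in siFUBP1, was too thinly read for such a call. The call of RUNX2 held in each of the 16 alternatives that could test it, with adjusted p from 4.03e-19 to 0.00210. Where the filter was used, it admitted RUNX2 through the siFUBP1 samples and nearly fixed the direction, so these calls are not separate support. The background covers all genes tested, not only those that passed the filter through siFUBP1 alone. On the scale of log2(FPKM + 1) its log2 fold change was 0.49, since its FPKM values lie below the added 1, and a required mean of 50 counts left it untested.

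**Figure D2:**
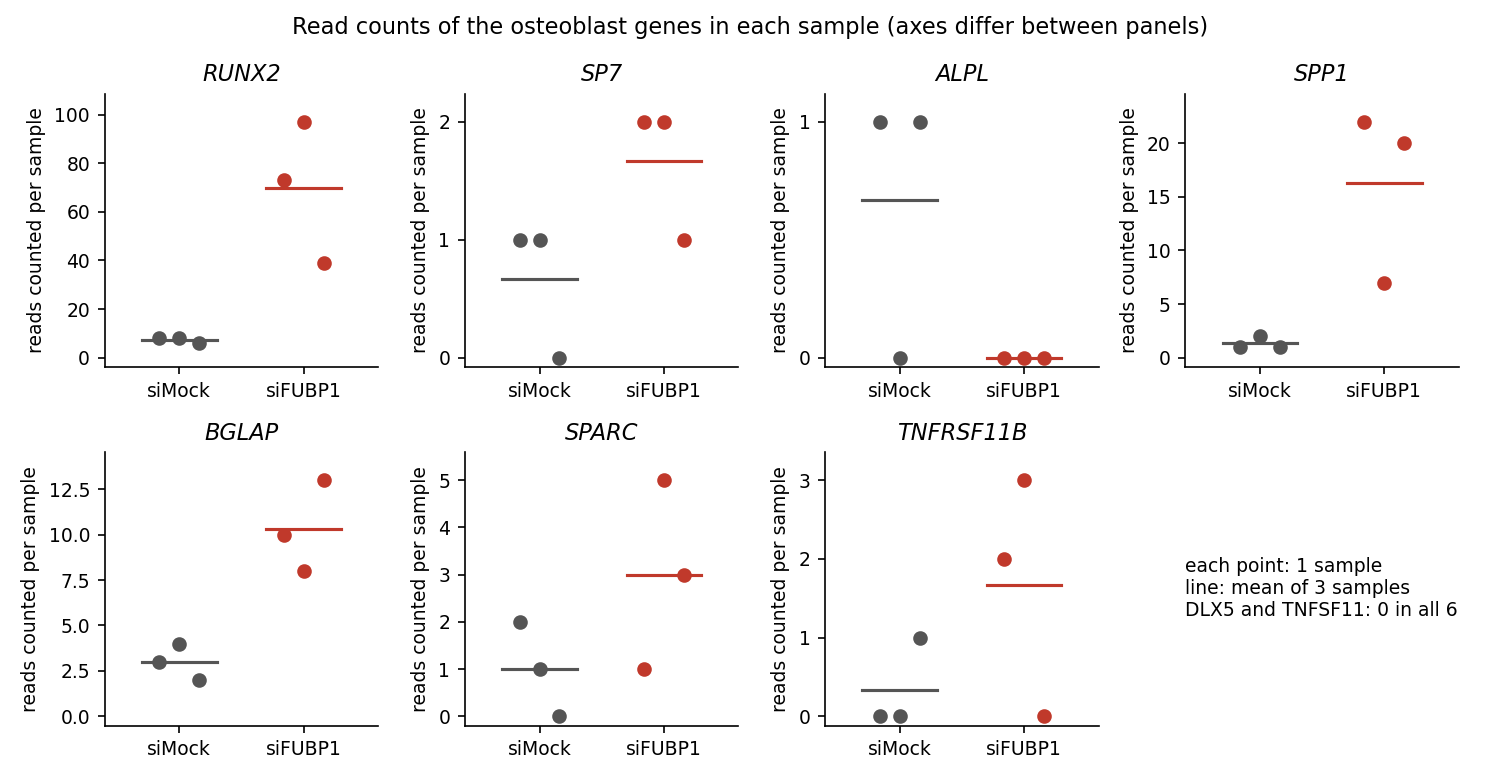
Reads counted in each sample for the 7 members with any read, siMock in grey and siFUBP1 in red, with a line at the mean of 3 samples. The vertical axes differ between panels. RUNX2, SPP1 and BGLAP have no overlap between the groups, and every other panel reaches at most 5 reads.

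Against its relatives, RUNX2 was the minor Runt factor of these libraries. RUNX3, the family member best known from T cells and epithelia, had 14.7 to 16.2 FPKM (counts scaled by gene length and library size, which allows a comparison between genes) in siMock and 20.1 to 25.9 in siFUBP1. RUNX1, the blood-forming member, had 1.14 to 1.38 FPKM in siMock and 1.89 to 2.53 in siFUBP1. RUNX2 had 0.0462 to 0.0591 FPKM in siMock and 0.270 to 0.681 in siFUBP1, below the other 2 in every sample. Its share of the summed FPKM of the family went from 0.289% to 0.352% in siMock to 1.21% to 2.34% in siFUBP1. RUNX1 and RUNX3 also rose, by log2 fold changes of 0.72 (adjusted p = 3.93e-06 by edgeR) and 0.58 (adjusted p = 2.79e-06 by edgeR). CBFB, the shared partner that stabilizes the DNA binding of all Runt factors, rose by 0.32 (adjusted p = 8.34e-04 by edgeR), from 103 ± 4.08 to 129 ± 8.97 CPM (SD, n = 3). These relatives were singled out after their values were seen.

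**Figure D3:**
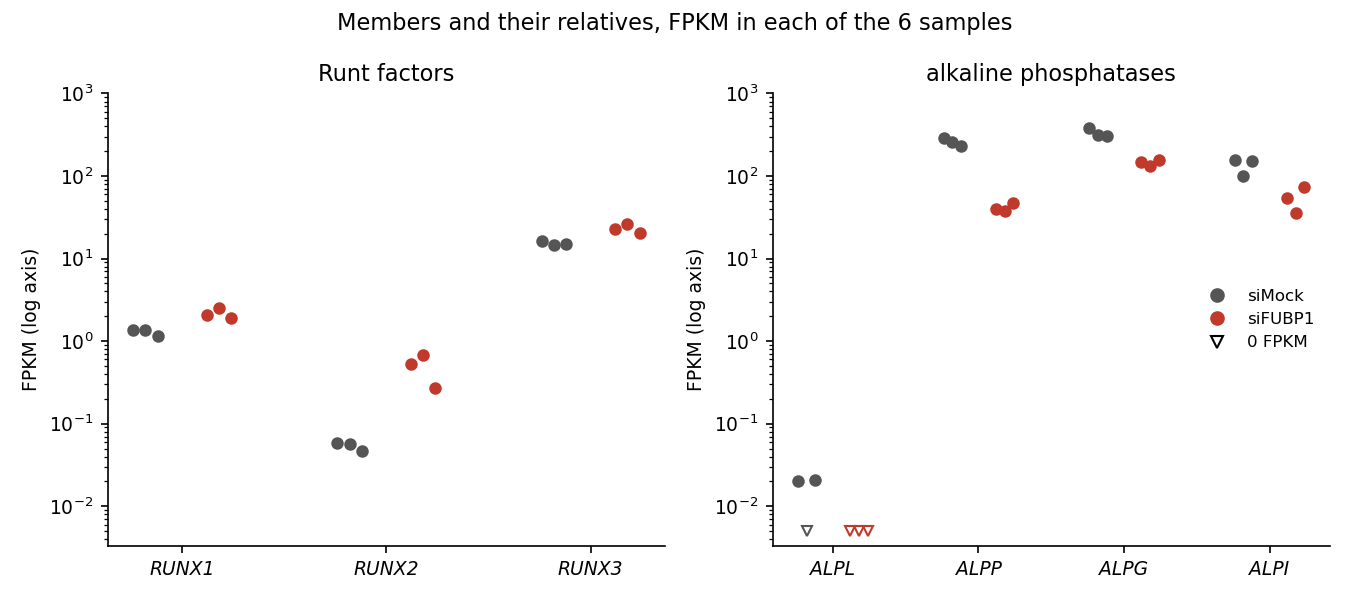
FPKM in each of the 6 samples (log axis) for the Runt factors and the alkaline phosphatases, siMock in grey and siFUBP1 in red. Open triangles mark 0 FPKM. RUNX2 lies below RUNX1 and RUNX3 in every sample, and ALPL lies orders of magnitude below ALPP, ALPG and ALPI.

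The factors placed after and before RUNX2 in the osteoblast chain were barely read. SP7 (ENSG00000170374, chromosome 12, 53326575 to 53345315, minus strand) had 1, 1 and 0 counts in siMock and 2, 2 and 1 in siFUBP1. The groups overlap, and the ratio of the summed counts was 2.37 with an interval from 0.387 to 24.8. A difference was therefore not detectable at this depth. DLX5 (ENSG00000105880, chromosome 7, 97020392 to 97024950, minus strand) had 0 counts in all 6 samples, which allows up to 0.172 to 0.192 CPM per library, taking 3 counts as the limit that a count of 0 leaves. Its neighbour and sister gene DLX6 had no read either. The homeobox gene MSX1, which also acts on osteoblasts, was read more deeply, at 192 to 245 counts across the controls and 116 to 156 after knockdown.

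The secreted matrix members divided by level. SPP1 (ENSG00000118785, chromosome 4, 87975650 to 87983426, plus strand), a phosphorylated glycoprotein that binds integrins and mineral, had 1, 2 and 1 counts in siMock and 22, 7 and 20 in siFUBP1. Its siFUBP1 samples all lay above its siMock samples, with replicate 2 well below the other siFUBP1 samples. Mean CPM (± SD, n = 3) came to 0.0809 ± 0.0317 for the controls and 0.949 ± 0.479 after knockdown. The 4 reads of siMock against 49 of siFUBP1 gave a ratio of 11.6 with an interval from 4.25 to 44.2. SPP1 did not pass the filter. In the fit without it, SPP1 was called higher, at 3.44 ± 0.71 (SE) on the log2 scale and an adjusted p = 7.85e-06 by edgeR, and DESeq2 without the filter gave 3.55 (adjusted p = 0.00121).

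BGLAP (ENSG00000242252, chromosome 1, 156241962 to 156243321, plus strand), a vitamin K-dependent protein of late osteoblasts, had 3, 4 and 2 counts in siMock and 10, 8 and 13 in siFUBP1. Again the groups did not overlap, but by a gap of only a few reads. Mean CPM (± SD, n = 3) came to 0.182 ± 0.0536 for the controls and 0.598 ± 0.142 after knockdown. The summed counts of 9 and 31 gave a ratio of 3.26 with an interval from 1.52 to 7.79. Without the filter, edgeR gave 1.68 ± 0.69 (SE) on the log2 scale with an adjusted p = 0.0460 and DESeq2 1.72 (adjusted p = 0.0995), so the call depended on the tool. BGLAP shares 398 exonic bases with the readthrough gene PMF1-BGLAP on the same strand, which had 0, 0 and 0 counts in siMock and 0, 1 and 3 in siFUBP1, and 1 base with PAQR6 on the opposite strand, where counts ran from 327 to 434 for siMock and from 551 to 606 for siFUBP1. The library kit named in the labels is not described as keeping the strand, which bears on PAQR6 alone. Reads of the 398 bases shared with PMF1-BGLAP could not be told apart by strand, so the counts and FPKM of BGLAP are uncertain to that extent.

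SPARC (ENSG00000113140, chromosome 5, 151661096 to 151687165, minus strand), a collagen-binding protein that is usually among the most abundant mRNAs of osteoblasts and fibroblasts, had 2, 1 and 0 counts in siMock and 1, 5 and 3 in siFUBP1. The groups overlap, and the ratio of 2.84 had an interval from 0.709 to 16.3, so no difference was detectable at this depth. On the log2 scale this ratio of 1.51 went to 2.51 without siMock replicate 1 and to 0.93 without siFUBP1 replicate 2. SPARC shares 381 exonic bases with CLMAT3 on the opposite strand, which had no read.

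Of the 7 members with any read, RUNX2, SPP1 and BGLAP had groups that did not overlap, with siFUBP1 higher in each. Among the 31703 genes with a read, 18.8% had siFUBP1 samples all above the siMock samples. Without the expression filter 3 of these 7 members were called higher by edgeR, against 15.9% of all genes in that fit. The 3 genes together with the others summed to 43 counts in siMock and 308 in siFUBP1, of which RUNX2 gave 67.9%.

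**Figure D4:**
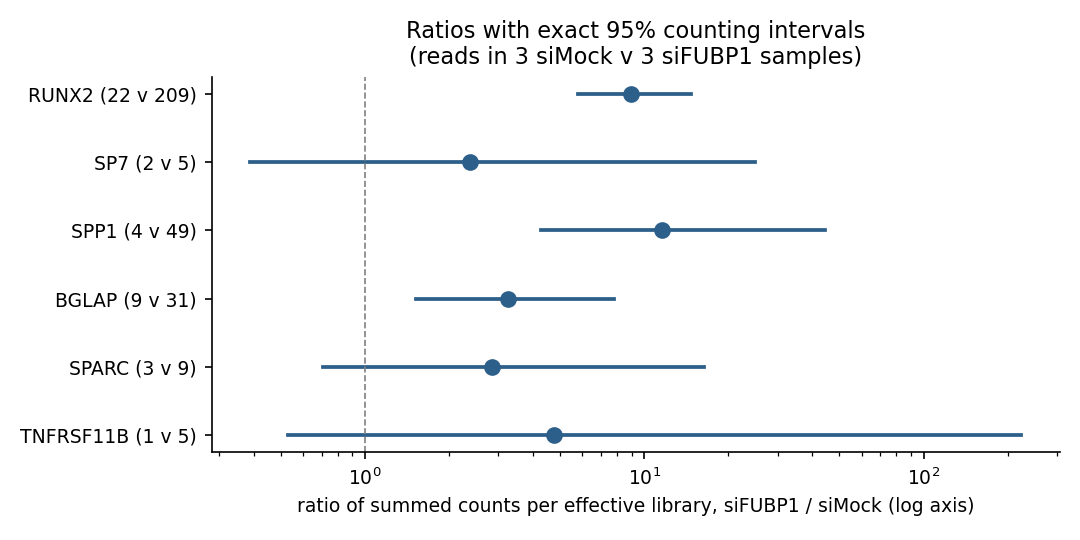
Ratio of the summed counts per effective library, siFUBP1 over siMock (log axis), for the 6 members with reads in both groups, with exact 95% counting intervals. The labels give the reads of 3 siMock and 3 siFUBP1 samples. The intervals of RUNX2, SPP1 and BGLAP lie above 1, and those of SP7, SPARC and TNFRSF11B include it.

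ALPL (ENSG00000162551, chromosome 1, 21509372 to 21578412, plus strand), the enzyme whose activity is the standard osteoblast stain, had 1, 0 and 1 counts in siMock and 0 in all 3 siFUBP1 samples. Both groups lie at or under the limit of 3 counts, so no fold is given. Other alkaline phosphatases were read deeply in the same libraries. ALPP, the placental isozyme, had 14647, 13433 and 11295 counts in siMock and 2106, 1997 and 2542 in siFUBP1. ALPG, the germ cell isozyme, ran from 11950 to 15626 counts for siMock and from 5810 to 6922 for siFUBP1, and ALPI, the intestinal isozyme, had 4580 to 6748 and 1626 to 3405. The siFUBP1 samples lay below the siMock samples for all 3 isozymes. ALPP fell from 802 ± 87.7 to 128 ± 15.6 CPM (mean ± SD, n = 3 each), or -2.65 as log2 fold change (adjusted p = 3.96e-17 by edgeR), and ALPG fell by 1.19 on the log2 scale (adjusted p = 1.99e-11 by edgeR). ALPI fell by 1.34 (adjusted p = 0.0307 by edgeR), with log2 fold changes from -1.62 to -1.10 over the alternatives. Its call was lost by edgeR without siMock replicate 1 (adjusted p = 0.0914), siMock replicate 3 (0.0903) or siFUBP1 replicate 1 (0.0962), without the expression filter (0.0665) and with the GC and length correction (0.0623). ALPL held at most 0.00305% of the summed FPKM of the 4 genes in any sample. ALPP, ALPG and ALPI are related in sequence, ALPP and ALPG most closely, so the division of reads among them is uncertain.

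The pair that governs osteoclast formation was barely read. TNFRSF11B (ENSG00000164761, chromosome 8, 118923557 to 118952200, minus strand) had 0, 0 and 1 counts in siMock and 2, 3 and 0 in siFUBP1. The groups overlap, and the ratio of 4.73 had an interval from 0.530 to 224. TNFSF11 (ENSG00000120659, chromosome 13, 42562736 to 42608013, plus strand) had 0 counts in all 6 samples, with the same limit per library as DLX5. With neither gene above 3 counts in any sample, a ratio of ligand to decoy receptor could not be given.

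Ordered by mean FPKM in siMock, BGLAP led at 0.152 ± 0.0450 FPKM (SD, n = 3), followed by RUNX2 at 0.0541 ± 0.00690 and SPP1 at 0.0345 ± 0.0136. BGLAP lay above RUNX2 in every siMock sample, whereas the siMock ranges of RUNX2 and SPP1 overlapped. ALPL, SPARC, SP7 and TNFRSF11B followed at 0.00744 to 0.0137 FPKM with overlapping ranges, and DLX5 and TNFSF11 were listed at 0. In siFUBP1 the order began with BGLAP at 0.500 ± 0.117, RUNX2 at 0.492 ± 0.207 and SPP1 at 0.407 ± 0.205 FPKM (SD, n = 3), whose ranges all overlapped. SPARC, TNFRSF11B and SP7 lay at 0.0282 to 0.0357 FPKM, below the lowest SPP1 sample at 0.173, and ALPL was listed at 0. These levels are low within the transcriptome. Of the 19951 protein-coding genes, 68.3% had a higher mean FPKM than RUNX2 in siMock and 57.4% in siFUBP1. The corresponding shares were 70.3% and 58.4% for SPP1 and 63.9% and 57.3% for BGLAP, and 19.1% of all protein-coding genes had no read at all.

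The genes around the members were described through 7 lists of 208 genes grouped by role, over which the counts and the median log2 fold change are given beside those of all genes tested (30.1% higher, 30.1% lower, median 0.00197). Of 42 other osteoblast transcription factors and partners, 37 were tested, 11 were higher (29.7%), 16 lower (43.2%) and 10 not called, with a median of -0.13. ID1, a BMP-induced inhibitor of helix-loop-helix factors, fell from 463 ± 54.6 to 131 ± 4.41 CPM (mean ± SD, n = 3 each), or -1.82 as log2 fold change. WWTR1 (TAZ), a coactivator of RUNX2 and of the TEAD factors, fell by 1.33 on the log2 scale. NR3C1, the glucocorticoid receptor, rose from 67.0 ± 2.35 to 161 ± 9.79 CPM (mean ± SD, n = 3 each), or 1.26 as log2 fold change. ATF4, a stress-response factor that also acts on the BGLAP promoter in osteoblasts, rose by 1.19. The adjusted p of each of these 4 genes was at most 1.65e-12 by edgeR. DLX6, PRRX1, ZBTB16 and EBF2 had no read in any sample.

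Genes of phosphate, pyrophosphate and mineral control came next: 20 of 29 were tested, 2 were higher (10%), 11 lower (55%) and 7 not called, with a median of -0.46. The 3 alkaline phosphatases described above are among the 11. FAM20C, the Golgi kinase that phosphorylates SPP1 and other secreted proteins, fell from 72.0 ± 6.65 to 19.97 ± 0.384 CPM (mean ± SD, n = 3 each), or -1.85 as log2 fold change, and SLC20A1, a sodium-phosphate cotransporter, fell by 0.73 (adjusted p at most 3.51e-09 by edgeR for both). MGP, which inhibits calcification, and FGF23, the phosphate-wasting hormone of osteocytes, had no read.

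Of 36 further bone matrix proteins only 16 were tested, and 9 had no read in any sample. The tested genes divided into 6 higher (37.5%) and 9 lower (56.2%) with 1 not called, and the median was -0.63. COL1A1, the major chain of bone collagen, fell from 113 ± 4.67 to 45.4 ± 0.149 CPM (mean ± SD, n = 3 each), or -1.31 as log2 fold change. THBS1 (thrombospondin-1) rose from 32.3 ± 1.34 to 128 ± 1.39 CPM (mean ± SD, n = 3 each), or 1.99 as log2 fold change, CYR61 (CCN1) rose by 2.25 and CTGF (CCN2) by 2.67 on the log2 scale (adjusted p at most 1.83e-13 by edgeR for these 4 genes).

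Genes that process collagen or are mutated in osteogenesis imperfecta were nearly all read: 24 of 26 were tested, 13 were higher (54.2%), 8 lower (33.3%) and 3 not called, with a median of 0.27. P4HA3 and P4HA2, catalytic subunits of the prolyl 4-hydroxylases, rose by log2 fold changes of 1.09 and 0.92. PPIB, the cyclophilin of the prolyl 3-hydroxylation complex, rose by 0.64. BMP1, the procollagen C-proteinase, fell from 172 ± 10.7 to 101 ± 1.35 CPM (mean ± SD, n = 3 each), or -0.77 as log2 fold change (adjusted p at most 3.07e-08 by edgeR for these 4 genes).

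Among 28 osteoclast-regulating signals other than TNFSF11 and TNFRSF11B, 18 were tested, of which 8 were higher (44.4%), 4 lower (22.2%) and 6 not called, with a median of 0.32. CXCL8 (interleukin-8) rose from 0.556 ± 0.182 to 7.16 ± 2.94 CPM (mean ± SD, n = 3 each), or 3.68 as log2 fold change. Like RUNX2 it had few reads in siMock, 6 to 11 per sample. It passed the filter through its siFUBP1 samples, which nearly fixed its direction. CSF1, the growth factor that osteoclast precursors need beside RANKL, rose from 20.9 ± 4.05 to 46.5 ± 7.90 CPM (mean ± SD, n = 3 each), or 1.15 as log2 fold change. IL11 rose by 1.08 and OSMR, the oncostatin M receptor, by 0.55 (adjusted p at most 3.13e-06 by edgeR for these 4 genes).

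Receptors and partners of the secreted members had 14 of 21 genes tested, 3 higher (21.4%), 10 lower (71.4%) and 1 not called, with a median of -0.66. The 10 lower genes became 6 when a mean of 50 counts was required. ITGB1, the integrin beta chain that takes part in binding SPP1, fell from 850 ± 63.0 to 382 ± 34.3 CPM (mean ± SD, n = 3 each), or -1.15 as log2 fold change. CD44, another receptor of SPP1, rose from 188 ± 11.9 to 348 ± 23.3 CPM (mean ± SD, n = 3 each), or 0.88 as log2 fold change. STAB1, a scavenger receptor of SPARC, fell by 2.58 and SDC1, a heparan sulfate proteoglycan, fell by 0.77 on the log2 scale (adjusted p at most 2.37e-08 by edgeR for these 4 genes). TNFRSF11A (RANK), the receptor of TNFSF11, ran from 48 to 51 counts for siMock and from 42 to 52 for siFUBP1 and was not called (log2 fold change -0.17, adjusted p = 0.547 by edgeR). On the scale of log2(FPKM + 1), STAB1 had a log2 fold change of -0.44.

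Of 26 genes of BMP signalling, the pathway upstream of DLX5 and RUNX2, 17 were tested, 6 were higher (35.3%), 5 lower (29.4%) and 6 not called, with a median of 0.0227. FST, which captures activins and BMPs, rose from 8.98 ± 0.194 to 26.4 ± 5.62 CPM (mean ± SD, n = 3 each), or 1.56 as log2 fold change. TWSG1, NOG and SMAD6, which limit the pathway outside and inside the cell, fell by 1.28, 0.83 and 0.88 on the log2 scale (adjusted p at most 1.68e-07 by edgeR for these 4 genes).

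**Figure D5:**
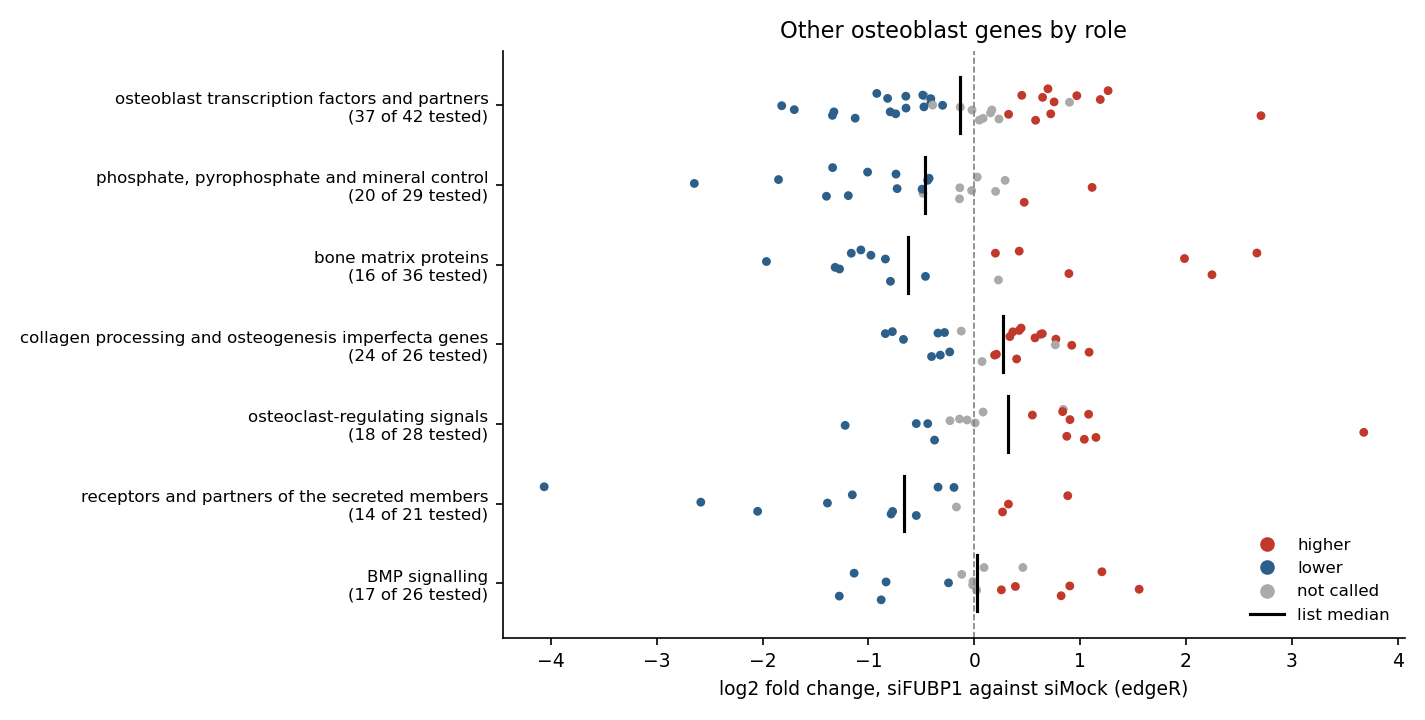
Log2 fold change of siFUBP1 against siMock by edgeR for the tested genes of the 7 lists, coloured by call at an adjusted p below 0.05, with a black line at each list's median. Points are spread vertically to be seen. The medians run from -0.66 for receptors and partners of the secreted members to 0.32 for osteoclast-regulating signals, and each list holds calls in both directions.

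Markers of other cell types were summed as CPM beside the members, whose sum was 0.703 to 0.979 in siMock and 4.35 to 7.02 in siFUBP1. Osteocyte genes (6 genes, DMP1, MEPE, FGF23 and PDPN at 0 counts) summed to 3.58 to 4.22 in siMock and 3.97 to 5.67 in siFUBP1. Muscle genes (5 genes, MYOD1, MYOG and MYF5 at 0 counts) summed to 4.64 to 5.63 and 5.15 to 5.35, and epithelial genes (5 genes, KRT5 at 0 counts) to 4.54 to 5.75 and 4.72 to 6.15. In these lists 0 genes were called by edgeR or DESeq2, and 0 had an unadjusted p below 0.05. The epithelial list does not hold the deeply read keratins KRT8, KRT18 and KRT7, which fell by 1.00, 0.66 and 0.40 on the log2 scale (adjusted p at most 2.56e-04 by edgeR). Chondrocyte genes (11 genes, ACAN, SOX5 and COL9A1 at 0 counts) summed to 6.48 to 7.35 and 2.60 to 4.29, with 3 called lower. Osteoclast genes (9 genes, DCSTAMP, OCSTAMP and ATP6V0D2 at 0 counts) summed to 7.28 to 7.61 and 4.92 to 5.87, with 2 called lower. Endothelial genes (5 genes) summed to 3.20 to 5.17 and 1.95 to 2.80, with 0 called by edgeR or DESeq2 and 1 gene, CDH5, at an unadjusted p below 0.05 by edgeR, with lower values in siFUBP1. Adipocyte genes (8 genes, ADIPOQ, FABP4 and LEP at 0 counts) summed to 306 to 366 and 176 to 190, with CEBPA and CFD called lower. Fibroblast and pericyte genes (7 genes, PDGFRA at 0 counts) summed to 243 to 275 and 130 to 153, nearly all from CSPG4, with CSPG4 and PDGFRB called lower. None of the 8 lists given here held a gene called higher by edgeR, against 30.1% of all genes tested. Few of their genes passed the filter, and the others could not be called. Tested were 1 osteocyte, 2 muscle, 2 epithelial, 4 chondrocyte, 4 osteoclast, 1 endothelial, 4 adipocyte and 3 fibroblast and pericyte genes. The part of such cells in the results for RUNX2, SPP1 and BGLAP was not tested.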

How the data were processed

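RNA was sequenced by the authors from 6 samples labelled MG63 after poly-A selection. They deposited 1 table of 58735 genes. Its read counts per gene were deposited without normalization. The submitters' processing notes name HISAT2 2.0.5, StringTie 1.3.3b, featureCounts 1.5.0-p3 and DESeq2 1.16.1, and the use of the strand is not given in the sources used here. FPKM values were deposited too, made by the authors from counts, gene length and a scaled library size. The authors' deposited log2 fold changes, p-values and group means of normalized signal hold their own comparison and were not used. All 58735 identifiers, starts and ends match GENCODE release 29 (GRCh38).

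Samples were grouped by their labels. Counts entered edgeR 4.0.16 under R 4.3.3 (TMM factors, expression filter by group, robust quasi-likelihood fit and test, Benjamini-Hochberg adjustment over 16116 genes), and genes were called at an adjusted p below 0.05. Members under the filter are given as counts, ratios of summed counts with exact 95% intervals, and fits without the filter. FPKM was used for levels between genes and in the limma alternatives. No pair of samples held identical counts. The fits were tested on simulated data. Alternatives were other scalings and filters, DESeq2 1.42.0, limma 3.58.1 on log2(FPKM + 1) and log2(FPKM + 0.1), a replicate block, a GC and length correction and leaving out each sample.

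The members and lists were chosen with earlier results of these data known. Named genes are the members, FUBP1, genes sharing exonic bases with a member and, per list, up to 4 called genes with the smallest adjusted p and a mean of at least 20 counts. Any other gene was named after its values were seen. Marker lists were osteocyte, chondrocyte, adipocyte, osteoclast, muscle, fibroblast and pericyte, endothelial and epithelial. A further marker list is not reported here.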

Additional observations from a re-analysis of the deposited data

How the results depend on the processing

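The number of members called higher depended on the expression filter. It was 1 as reported and under each other scaling, 3 with edgeR and no filter (RUNX2, SPP1 and BGLAP), 2 with DESeq2 and no filter (RUNX2 and SPP1, an alternative chosen after the data were seen) and 0 when a mean of 50 counts was required, since no member reaches it. Leaving out 1 sample gave 1 to 3. RUNX2, SPP1 and BGLAP all passed the filter and were called without siMock replicate 1, siMock replicate 2 or siFUBP1 replicate 2. The same 3 passed it without siMock replicate 3, where BGLAP was not called (adjusted p = 0.0623 by edgeR), and RUNX2 alone passed it without siFUBP1 replicate 1 or 3. Like RUNX2, SPP1 and BGLAP passed the filter only through the siFUBP1 samples, where their counts were higher. Being tested thus nearly fixed the direction, and the calls of all 3 genes in these fits are not separate support. The log2 fold change of RUNX2 stayed between 2.85 and 3.44 in these 6 fits. No member was called lower in any of the 18 alternatives, but most of them held RUNX2 alone. Of all genes, 4844 were higher and 4851 lower, and 1315 and 1472 with an absolute log2 fold change above 1. The other 17 alternatives kept both counts within 1.5 times. Same-numbered samples deviated together by correlations of -0.0047, 0.017 and 0.12, so the numbers were not taken to pair the samples. With a replicate block, 5013 genes were higher and 5001 lower, and RUNX2 was the 1 member called. The 28 genes named from the lists kept their sign in every alternative that tested them. Depth limits SP7, SPARC, ALPL and TNFRSF11B, with at most 5 reads in any sample.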

Other observations

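The genes named here were chosen after their values were seen. FOSL1, an AP-1 factor of the transcription factor list, had 364, 387 and 231 counts in siMock and 2075, 2773 and 1917 in siFUBP1. It rose by 2.71 on the log2 scale (adjusted p = 1.62e-05 by edgeR). The AP-1 genes JUND and FOSL2 of the same list did not follow. JUND had a log2 fold change of -0.79 (adjusted p = 0.0012 by edgeR), and FOSL2 was not called (0.15, adjusted p = 0.0787 by edgeR). Among matrix genes under the filter, SPARCL1, a relative of SPARC, had 1, 2 and 0 counts in siMock and 10, 9 and 7 in siFUBP1, and PTHLH, the parathyroid hormone-like factor of the osteoclast-regulating list, had 2, 2 and 4 and then 28, 25 and 9. Both genes had siFUBP1 samples all above the siMock samples, as had 18.8% of the 31703 genes with a read. In the alternatives that tested them their adjusted p ran from 0.00532 to 0.0278 for SPARCL1 and from 6.03e-06 to 0.00156 for PTHLH. Both were picked for their rise and could pass a filter only through siFUBP1, so these values are not separate support. Other thinly read genes of the lists were lower in siFUBP1. DCN had 5, 7 and 3 counts in siMock and 2, 0 and 0 in siFUBP1, and IFITM5 had 12, 9 and 3 and then 1, 2 and 3.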
